A study of Mus musculus with 12 samples.

Results

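The genes of the cytosolic ribosomal proteins were followed across brown adipocytes transduced with a truncated Semaphorin 4B, made to mimic its shed form, or with an empty vector. Members were the rows whose symbol is Rpl or Rps with a number and at most a closing a, x or l, together with Rplp0, Rplp1, Rplp2 and Rpsa, and rows named as pseudogenes were left out. The rule found 82 of the 48321 genes listed, 50 of the large subunit and 32 of the small subunit. The cells were preadipocytes from the interscapular brown fat of a newborn wild-type mouse (C57BL/6J), immortalized with SV40 large T antigen and carried as 1 stable, puromycin-selected lentiviral line per construct, either pLEX empty vector or pLEX with truncated Semaphorin 4B (tSema4B). Both lines were differentiated for 8 days and then kept in serum-free medium with albumin, without stimulus or with 2 µM norepinephrine (NE), the transmitter of sympathetic nerves, for 6 h. This gave 4 groups of 3 libraries, here called vector unstimulated, vector NE, tSema4B unstimulated and tSema4B NE. In the submitters' words these 3 are technical replicates, so each SD and p measures the spread between such libraries of 1 line, and the construct and the line that carries it cannot be told apart.

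Ribosomal proteins assemble with ribosomal RNA into the large and the small subunit, and cells make them in near-equal amounts. Their mRNAs are short, abundant and long-lived. Most begin with a C followed by a run of pyrimidines, the 5′ terminal oligopyrimidine (TOP) motif, through which the kinase mTORC1 and the protein Larp1 set their translation, so protein output can change while mRNA does not. Their promoters commonly hold sites for ETS-family factors and YY1. Many processed pseudogenes derive from these mRNAs, and short reads can match a gene and its copies alike. In brown fat, NE acts through beta-adrenergic receptors and cyclic AMP to start lipolysis and heat production.

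The starts of 8 members named below are shown. They are the 3 largest increases called by limma after NE in the vector line (Rpl37, Rplp2 and Rpl35), the most abundant per length (Rplp0), Rps6, and paralogs with a parent (Rpl39l, Rps27l and its parent Rps27). Each line gives, from the promoter table of RefSeq for GRCm38.p6, the 15 bases before the annotated start and the 15 bases from it, 5′ to 3′ on the gene's strand, and capitals mark the longest run of pyrimidines.
Rpl37, chr15:5116598-5116627 on the plus strand: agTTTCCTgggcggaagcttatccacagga
Rplp2, chr7:141447636-141447665 on the plus strand: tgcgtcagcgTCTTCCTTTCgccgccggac
Rpl35, chr2:39005117-39005146 on the minus strand: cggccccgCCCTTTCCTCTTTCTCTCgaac
Rplp0, chr5:115559452-115559481 on the plus strand: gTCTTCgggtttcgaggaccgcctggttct
Rps6, chr4:86857353-86857382 on the minus strand: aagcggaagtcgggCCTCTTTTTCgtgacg
Rps27, chr3:90213634-90213663 on the minus strand: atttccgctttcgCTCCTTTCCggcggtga
Rps27l, chr9:66946071-66946100 on the plus strand: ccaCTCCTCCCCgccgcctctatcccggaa
Rpl39l, chr16:10170213-10170242 on the plus strand: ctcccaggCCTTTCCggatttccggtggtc

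Of these, Rplp2, Rpl35, Rps6 and Rps27 have a C at the annotated start with at least 4 pyrimidines after it, and the other 4 do not. The table held 72 promoters of 60 members. A start with a C and at least 4 pyrimidines was found in 21.7% of these 60 members against 3.01% of all 27025 genes in the table, and a run of at least 8 pyrimidines within 15 bases of the start in 43.3% against 13.9%. Within the 300 bases of the promoter, 250 before and 50 after the start and searched on both strands, the letters CCGGAAG, bound by the ETS family, stood in 41.7% of the members and 9.93% of all genes. The letters AAGATGG, bound by YY1, stood in 15% of the members and 7.28% of all genes. The cyclic AMP response element TGACGTC stood in 11.7% of the members and 3.60% of all genes. The TATA box letters TATAAA were found in 10.0% of the members and 15.7% of all genes, and the E-box CACGTG in 10.0% and 8.09%. Among the members printed, the ETS letters stood in the promoters of Rpl37, Rplp2, Rpl35, Rps6, Rps27l and Rpl39l, the YY1 letters in that of Rps27 and the TATA letters in that of Rplp0. A match is a description, and no match says only that these letters are not in this window.

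Reads counted on genes lay between 2000780 and 5409583 per library, deepest in vector NE. Sema4b, the transduced gene, took 2.04 to 4.02% of the normalized counts of the vector libraries and 7.01 to 10.2% of those of the tSema4B libraries, and mitochondrial genes 13.4 to 16.7% and 6.91 to 7.89%. The 10 adipocyte markers, all lower in tSema4B than in vector in both conditions by limma, summed to 42229 to 48589 normalized counts in vector unstimulated, 7368 to 10115 in tSema4B unstimulated, 55998 to 67499 in vector NE and 11361 to 12901 in tSema4B NE. The 8 preadipocyte and fibroblast markers summed to 13589 to 16901 in the vector libraries and 28950 to 34861 in the tSema4B libraries, with 6 of 8 higher in tSema4B unstimulated and 7 of 8 after NE. Of the 8 brown adipocyte markers, 6 could be tested and 4 were lower in tSema4B in each condition, Dio2 was at 0 in all libraries and Ucp1 at 0 in tSema4B unstimulated. Macrophage and endothelial markers were near 0 (at most 24.6 and 21.9 summed), with Ptprc, Adgre1 and Kdr at 0 throughout, and of the muscle markers Myod1, Myog, Myf5 and Ckm were at 0, with 1 of 2 tested lower in tSema4B in each condition. The 4 proliferation markers summed to 3505 to 5151, with 2 lower in tSema4B unstimulated and 1 lower after NE. The part of these differences in the results below was not tested, and in bulk RNA fewer cells of a type and less RNA per cell cannot be told apart.

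The levels of the members per kilobase of transcript ran from 0 to 4069.6 normalized counts in the group means. Rplp0, which encodes the base of the stalk that recruits translation factors to the large subunit, was first in every group, with 3122 ± 236 normalized counts per kilobase in vector unstimulated and 4069.6 ± 86.9 in vector NE (SD, n = 3). Rpl4, Rps14 and Rplp1 took the next 3 places in all 4 groups, and in vector unstimulated their levels of 2528 ± 108, 2443 ± 322 and 2294 ± 359 per kilobase lay within their spread of each other. By counts, Rplp0 held 12.6%, Rpl4 11.0% and Rps3 7.28% of everything counted on the members, and the leading 5 genes together 39.4%. At the other end, Rpl10l had no read, Rpl3l 1 read and Rpl24 15 reads over the 12 libraries, and these 3 did not reach 10 normalized counts in 3 libraries, so 79 members were tested. The depth was at least 100 reads in the median library for 51 members and under 20 for 11.

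Members also differed in how much of their sequence is their own, and levels were lower where less of it was. Of the 100-base windows of each transcript (the length of the reads), a median of 60.8% over 80 members occurred in no annotated transcript of another gene, with a range from 1.63% for Rps27 to 100% for 9 members. The 16 members with under 25% of such windows had a median of 40.3 normalized counts per kilobase, the 36 with 25 to 75% a median of 270.0 and the 28 with at least 75% a median of 666. Across the 80 genes the Spearman correlation of that share with the level was 0.486, a description over genes that share the same libraries. Rows named as pseudogenes of members, 272 of them, held 124621 reads against 508793 on the members, and 18 members had fewer reads than their own pseudogene rows. Rps6, the small-subunit protein phosphorylated downstream of mTORC1, had 355 reads against 5835 on 4 pseudogene rows, with 16.4% of its windows unique. Rps19 had 9012 reads against 43221, of which Rps19-ps6 alone held 43117. How reads that match several places were counted is not given in the sources used here, so the part of shared sequence in these levels was not tested. Rpl35, Rpl5 and Rpl13a also share annotated exon bases with neighbours, 821 bases with Wdr38, 953 with Fam69a and 621 with Gm45713, and whether counting used strand is not given either. The lengths used for Rps20 (3706 bases) and Rps15a (5179 bases) are those of long annotated transcripts, which makes their levels per kilobase low.

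**Figure D1:**
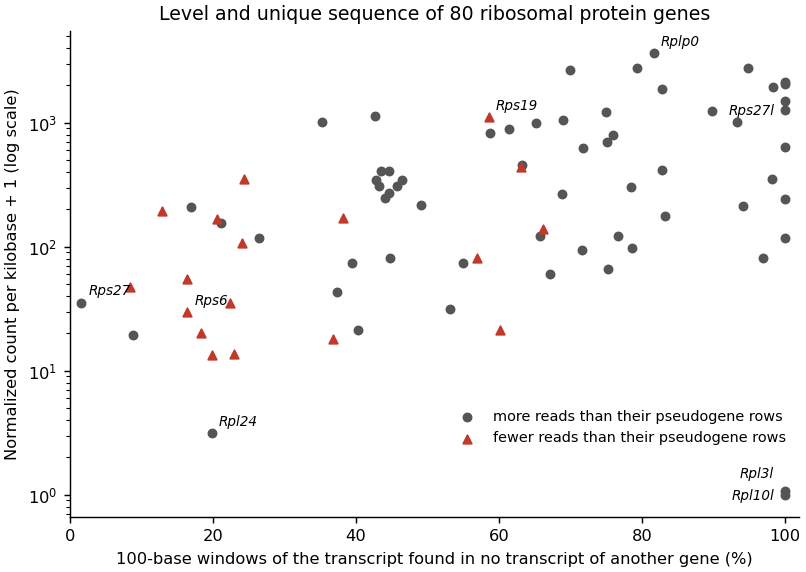
Each point is 1 of 80 ribosomal protein genes, with the share of its 100-base windows found in no transcript of another gene on the horizontal axis and its mean normalized count per kilobase over the 12 libraries, plus 1, on a log axis. Red triangles are the 18 genes with fewer reads than their own pseudogene rows, and Rpl10l and Rpl3l lie at the bottom although all their windows are unique.

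On average over libraries, the members took their largest share of counts in the vector line after NE. Their summed share of normalized counts was 1.10, 1.01 and 1.19% in the vector unstimulated libraries, 1.30, 1.10 and 1.43% in tSema4B unstimulated, 1.35, 1.51 and 1.49% in vector NE and 1.35, 1.15 and 1.14% in tSema4B NE. All vector NE libraries lay above all vector unstimulated libraries, whereas the unstimulated lines overlapped each other, vector NE overlapped tSema4B unstimulated, and the NE and unstimulated libraries of tSema4B overlapped. The 2 subunits moved together, and the ratio of large-subunit to small-subunit counts stayed between 1.23 and 1.29 in all 12 libraries. Mitochondrial genes and Sema4b take unequal shares of the 2 lines, and the share of the members among nuclear genes without Sema4b is given with the processing alternatives.

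**Figure D2:**
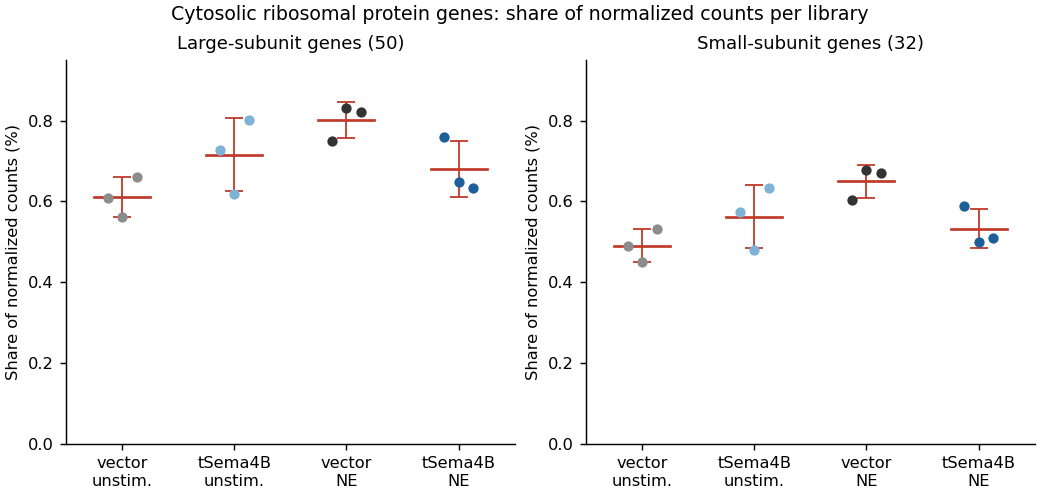
Share of all normalized counts (%) that fell on the 50 large-subunit genes (left) and the 32 small-subunit genes (right), with 1 point per library, a red line at the group mean and bars of 1 SD (n = 3). In both panels vector NE has the highest group mean, with libraries at 0.750 to 0.831% on the large subunit and 0.603 to 0.678% on the small subunit, which overlap those of tSema4B unstimulated (up to 0.801 and 0.633%). On the large subunit the vector NE libraries also overlap those of tSema4B NE (up to 0.760%).

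NE against no stimulus in the vector line asked how the control cells respond. By limma 33 of 79 members were higher with NE at an adjusted p of at most 0.05, 16 of 47 in the large and 17 of 32 in the small subunit, against 6.82% of all 11998 genes tested, and none was lower, against 4.78%. No member was lower at an unadjusted p under 0.05 either, against 11.1% of all genes, while 56 were higher at that unadjusted p, against 12.8%. edgeR called 38 members higher and none lower, against 932 and 642 of all 11998 genes. DESeq2 called 37 higher and none lower, against 958 and 694 of the 22569 genes it was given. The median log2 fold change of the members was 0.54 against -0.019 for all genes, and 78 of 79 were positive, the exception being Rpl15 at -0.19, a value that did not pass the test. In 62 members every NE library lay above every unstimulated library, which held for 17.6% of all genes, and the reverse held for 1 member against 15.7%. The changes were small, from 0.26 to 0.92 on the log2 scale among the members called, and none reached the study's threshold, a log2 fold change of 1. Leaving out vector unstimulated replicate 2 left 17 members higher, against 4.83% of all genes, and leaving out vector NE replicate 3 left 18, against 3.72%, and 15 of the 33 calls were kept whichever library was left out, Rplp0, Rplp1, Rplp2, Rpl35, Rpl37, Rps3 and Rps27l among them.

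The largest called increase was that of Rpl37, a zinc-binding protein of the large subunit. Its normalized counts were 164, 159.8 and 209 in vector unstimulated and 292, 385 and 331 in vector NE, so that the groups did not overlap, a log2 fold change of 0.92 ± 0.21 SE, limma adjusted p = 0.00695. Rplp2, an acidic protein of the stalk, had 343, 261 and 359 without and 512, 609.9 and 578 with NE, every NE library being above every unstimulated one, and a log2 fold change of 0.83 ± 0.17 SE, limma adjusted p = 0.00240. Rpl35 of the large subunit had 170.5, 156 and 169 without and 242, 337 and 306 with NE, again apart, at 0.82 ± 0.18 SE, limma adjusted p = 0.00412. Rplp1, the partner of Rplp2 in the stalk, went from 1145 ± 179 to 1706 ± 182 (SD, n = 3), which is, on the log2 scale, 0.58 ± 0.13 SE, limma adjusted p = 0.00457. Rplp0 rose less on the log2 scale, from 4239 ± 319.9 to 5527 ± 118, at 0.39 ± 0.074 SE, limma adjusted p = 0.00144, with all its NE libraries above all unstimulated ones. Rps3, a protein at the mRNA entry of the small subunit that also acts in DNA repair, went from 2581 ± 174 to 3369 ± 99.3, at 0.39 ± 0.080 SE, limma adjusted p = 0.00279.

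Some of the largest fold changes, in members with few reads, did not pass the test. Rps6 had 19.5, 21.9 and 19.6 normalized counts without and 39.6, 40.3 and 44.5 with NE, groups that did not overlap, yet its log2 fold change of 0.99 ± 0.37 SE had a limma adjusted p of 0.0856. With the reads of its pseudogene rows added, the value was 0.32 (limma adjusted p = 0.0470). Rpl12, a protein of the base of the stalk, gave 1.01 ± 0.34 SE with a limma adjusted p of 0.0559, just outside the threshold. Rpl5 and Rpl11, which form with 5S RNA a particle that binds Mdm2 when ribosome assembly fails, gave 0.87 ± 0.33 SE and 0.51 ± 0.43 SE, with limma adjusted p of 0.0969 and 0.519. Other well-known members, some with many reads, did not pass either. Rpl13a, known for a role outside the ribosome in silencing inflammatory mRNAs, gave 0.54 ± 0.21 SE (limma adjusted p = 0.104), Rps27a, which is made as a fusion with ubiquitin, 0.64 ± 0.34 SE (0.261), Rpl10a 0.23 ± 0.23 SE (0.609) and Rpsa, the laminin-binding protein of the small subunit, 0.19 ± 0.097 SE (0.233).

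**Figure D3:**
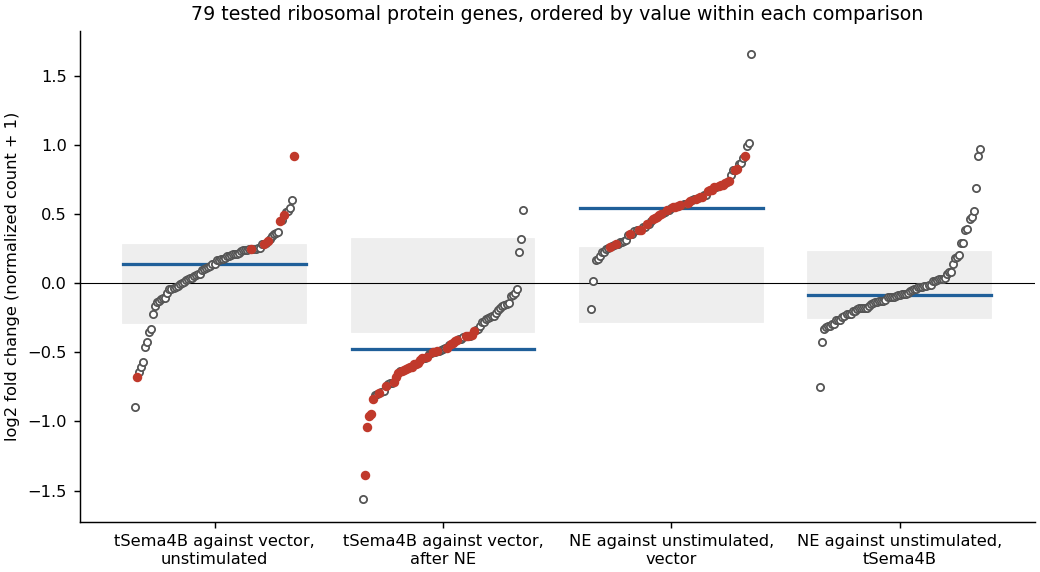
Log2 fold change of each of the 79 tested ribosomal protein genes (points, ordered by value) in the 4 comparisons. Red points passed the limma test at an adjusted p of at most 0.05, blue lines are medians of the members (0.14, -0.48, 0.54 and -0.084 from left to right) and grey boxes span the middle quartiles of all 11998 genes.

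In the same comparison in the tSema4B line, no member passed the limma test in either direction, against 3.68% of all genes higher and 2.58% lower, with 2 members higher and 4 lower at an unadjusted p under 0.05, against 10.7% and 9.19% of all genes. edgeR called no member, against 418 higher and 271 lower of all 11998 genes. DESeq2 called none higher, against 451 of the 22569 genes it was given, and 2 lower, against 1.45%. Leaving out 1 library gave 1 higher without tSema4B NE replicate 2, against 2.7% of all genes, and gave 3 lower without tSema4B unstimulated replicate 2, against 1.75%, and 1 lower without vector unstimulated replicate 2, vector unstimulated replicate 3 or tSema4B NE replicate 1, against 2.31 to 2.43%. The median log2 fold change was -0.084 against -0.0048 for all genes, and 24 of 79 members were positive. Groups that did not overlap were found for 1 member higher, against 11% of all genes, and for 6 lower, against 9.64%. Rplp2 had 389, 314 and 418 normalized counts without and 454, 265 and 288 with NE in this line, overlapping groups with a log2 fold change of -0.18 ± 0.17 SE. Rpl37 likewise overlapped, with 285, 164 and 345 and 303, 188 and 211, at -0.14 ± 0.21 SE. For Rplp0 the value was -0.030 ± 0.074 SE and for Rps3 -0.058 ± 0.080 SE. Rps20 of the small subunit came nearest to the threshold, with means of 936 ± 138 before and 696 ± 91.9 after NE, or -0.42 ± 0.13 SE on the log2 scale, with a limma adjusted p of 0.0566.

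Whether NE acted differently in the 2 lines was tested as the interaction of tSema4B and NE. The interaction was negative for 77 of 79 members, with a median of -0.57 against 0.0076 for all genes, a negative value being a lower fitted NE effect in tSema4B than in vector. No member passed limma after adjustment, in a test that called 0.025% of all genes higher and 0% lower, while 46 members had an unadjusted p under 0.05, all of them negative, against 5.21% of all genes lower and 5.02% higher at that p. edgeR on whole reads also called no member, against 3 higher and 1 lower of all 11998 genes. DESeq2 on the same reads called 22 of the 81 members it was given lower, against 0.328% of its 22569 genes. It gave no adjusted p for 37 of these members, and how many other genes lacked one is not given here. Rps24 of the small subunit (-0.85, DESeq2 adjusted p = 0.00348) was among the DESeq2 calls and is named here after its values were seen. By limma, 10 members were lower without tSema4B unstimulated replicate 2, against 0.184% of all genes, and 3 without tSema4B NE replicate 1, against 0.0586%.

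**Figure D4:**
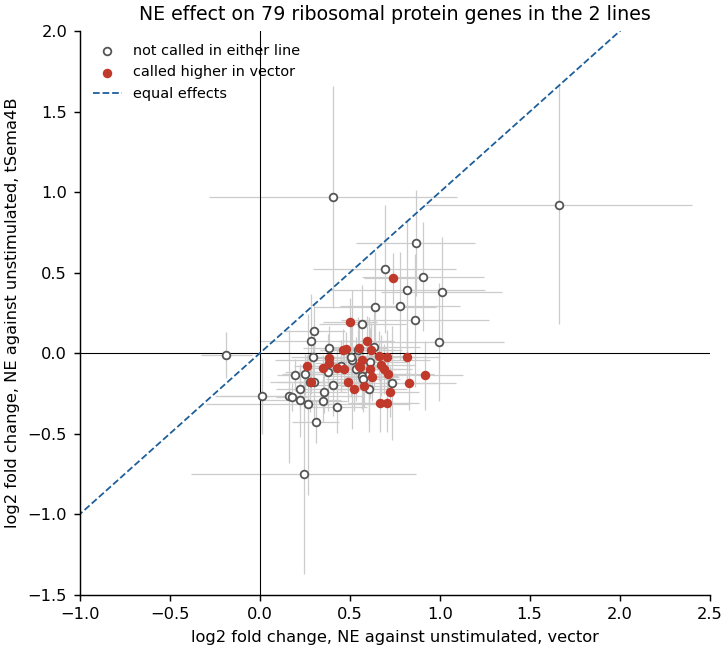
Log2 fold change of NE against no stimulus in the vector line (horizontal) and in the tSema4B line (vertical) for 79 ribosomal protein genes, with bars of 1 SE. The 2 axes share no library. Nearly all points lie below the dashed line of equal effects (77 of 79) and right of 0 (78 of 79), and the red points are the 33 called higher in vector.

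After NE, tSema4B against vector asked how the stimulated lines differ, with the vector NE libraries shared with the comparison of NE in the vector line. Here 33 of 79 members were lower in tSema4B by limma, 18 of 47 in the large and 15 of 32 in the small subunit, against 11.2% of all genes, and none was higher, against 9.79%. Of the members, 50 were lower and 1 higher at an unadjusted p under 0.05, against 17.2% and 15.7% of all genes. edgeR called 36 lower, against 12.1% of all genes, and none higher, against 1268 of 11998. DESeq2 called 32 lower, against 6.17% of the genes it was given, and none higher, against 1286 of 22569. The median was -0.48 against -0.010 for all genes, and 76 of 79 members were negative. Groups did not overlap for 53 members lower, against 19.8% of all genes, and for 2 higher, against 17.9%. When a log2 value of -1 or below was also asked for, 2 members were lower, Rps4l and Rps6, against 3.73% of all genes. Without vector NE replicate 2 or 3 the count was 18, against 8.09% and 8% of all genes, and without tSema4B NE replicate 2 it was 20, against 10.1%, and 14 of the 33 calls were kept whichever library was left out. Rps27l, described with the paralogs, had the lowest adjusted p. Rplp2 gave -0.79 ± 0.17 SE, limma adjusted p = 0.00174, Rpl35 -0.84 ± 0.18 SE, limma adjusted p = 0.00183, and Rplp1 -0.61 ± 0.13 SE, limma adjusted p = 0.00158. Rpl35 had 242, 337 and 306 normalized counts in vector NE and 211, 149.6 and 137 in tSema4B NE, so the groups did not overlap. Rps3 (-0.35 ± 0.080 SE, limma adjusted p = 0.00331) and Rpsa (-0.37 ± 0.097 SE, limma adjusted p = 0.00803) were lower by less than 0.4, with SDs as small as those of Rpsa, 594 ± 9.49 in vector NE and 458 ± 1.87 in tSema4B NE. Rplp0, at -0.17 ± 0.074 SE, did not pass (limma adjusted p = 0.115), nor did Rpl37 at -0.54 ± 0.21 SE (0.0793).

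Rps6 and Rpl12 were called lower on few reads. Rps6 had 39.6, 40.3 and 44.5 normalized counts in vector NE and 19.3, 19.9 and 19.8 in tSema4B NE, at -1.04 ± 0.37 SE, limma adjusted p = 0.0469. With its pseudogene rows added its log2 fold change shrank to -0.30 (limma adjusted p = 0.0435). Rpl12 had 53.1, 75.9 and 58.3 and 30.0, 27.5 and 37.0, at -0.96 ± 0.34 SE, limma adjusted p = 0.0470. In both genes the 2 lines did not overlap, and both lost the call in 13 or 14 of the alternatives tried, among them each way of leaving out 1 library of vector NE or tSema4B NE. Rpl10a (-0.51 ± 0.23 SE), Rpl5 (-0.40 ± 0.33 SE), Rpl11 (-0.72 ± 0.43 SE), Rpl13a (-0.28 ± 0.21 SE) and Rps27a (-0.78 ± 0.34 SE) did not pass.

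Without stimulus, few of these genes were called between tSema4B and vector, whose libraries here also serve the NE comparisons. By limma 6 members were higher in tSema4B, against 5.64% of all genes, and 1 was lower, against 7.39%, with a median of 0.14 against -0.0025 for all genes and 56 of 79 positive. Groups did not overlap for 11 members higher, against 14.2% of all genes, and for 3 lower, against 15.1%. Among the 6 were Rpl39l, described with the paralogs, Rps20 (0.49 ± 0.13 SE, limma adjusted p = 0.0139), Rps4x (0.31 ± 0.086 SE, limma adjusted p = 0.0196) and Rplp0 (0.25 ± 0.074 SE, limma adjusted p = 0.0274). Rps20 had 654, 557 and 792 normalized counts in vector and 896, 821 and 1089.8 in tSema4B, apart but with the highest vector library close to the lowest tSema4B library. None of the 6 calls was kept under every way of leaving out 1 library, and without vector unstimulated replicate 1 or 2 no member was called higher, against 3.85% of all genes in each case. The count was 3 without tSema4B unstimulated replicate 1, 11 without replicate 2 and 2 without replicate 3, against 4.51, 4.45 and 4.98% of all genes, and without replicate 3 there were 2 members lower, against 6.92%. When all libraries were scaled to the same total over nuclear genes, 2 members were higher, against 475 of all 11998 genes, and 2 lower, against 1232.

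Among members whose symbol ends in l, the copy and its parent did not always follow the same order of groups. Rps27l, a gene induced by p53 that encodes a near copy of Rps27, was called lower in tSema4B in both conditions, and both calls were kept whichever library was left out. It had 654, 571 and 597 normalized counts in vector unstimulated, 433, 283 and 445 in tSema4B unstimulated, 860.0, 1129 and 1068 in vector NE and 656, 440.3 and 497 in tSema4B NE. The lines did not overlap in either condition, and Rps27l was lower in tSema4B, with a log2 fold change of -0.68 ± 0.16 SE, limma adjusted p = 0.00495 without stimulus and of -0.95 ± 0.16 SE, limma adjusted p = 1.39e-04 after NE. NE raised it in vector (0.74 ± 0.16 SE, limma adjusted p = 0.00326), and in tSema4B the value was 0.46 ± 0.16 SE with a limma adjusted p of 0.0833, while the interaction of -0.27 ± 0.22 SE did not pass (limma adjusted p = 0.728). All its windows are unique and it lies at chr9:66946086-66949516 on the plus strand. The parent Rps27 (chr3:90212522-90213651, minus strand) had at most 20.1 normalized counts in any library, with 1.63% of its windows unique, and no comparison of it passed the test.

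Rpl39l, the paralog of Rpl39 known from testis and from some tumours, was the only one of these paralogs called higher in tSema4B. It had 44.5, 48.8 and 85.0 normalized counts in vector unstimulated and 105, 108 and 112 in tSema4B unstimulated, apart, at 0.92 ± 0.24 SE, limma adjusted p = 0.0127. After NE the values were 61.8, 96.6 and 103 in vector and 119, 116 and 135 in tSema4B, again apart, but the log2 fold change of 0.53 ± 0.24 SE did not pass (limma adjusted p = 0.127). The unstimulated call was lost without vector unstimulated replicate 1 or 2, with log2 fold changes from 0.74 to 1.20 over all alternatives. Rpl39l lies at chr16:10170226-10174911 on the plus strand and all its windows are unique. The parent Rpl39 (chrX:37082520-37085402, minus strand) had 152, 158 and 258 in vector unstimulated and 212, 153 and 220.4 in tSema4B unstimulated, which overlapped (0.069 ± 0.19 SE). Rpl39 rose with NE in vector (0.67 ± 0.19 SE, limma adjusted p = 0.0224) and was lower in tSema4B after NE (-0.68 ± 0.19 SE, limma adjusted p = 0.0130), where the paralog had the opposite sign. The first of these Rpl39 calls was lost in 5 of 26 alternatives, with values from 0.54 to 0.92. The second was lost in 2 of 26, without vector NE replicate 2 or 3, with values from -0.80 to -0.58. Whether the 2 genes differ in their response was not tested.

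Rps4l and Rpl6l are listed beside Rps4x and Rpl6 by their names, but GENCODE annotates both as processed pseudogenes, Rps4l as a transcribed one at chr6:148354656-148355598 and Rpl6l at chr10:111125851-111126721. Rps4l had 29.3, 38.7 and 42.5 normalized counts in vector unstimulated, 21.5, 12.4 and 26.0 in tSema4B unstimulated, 65.2, 61.6 and 62.9 in vector NE and 18.2, 23.7 and 30.4 in tSema4B NE, the tSema4B libraries all being below the vector libraries in both conditions. It was the largest called difference after NE, at -1.38 ± 0.34 SE, limma adjusted p = 0.00495, and without stimulus it gave -0.90 ± 0.34 SE (limma adjusted p = 0.0837). Rps4x, the X-linked parent (chrX:102184941-102189394, minus strand), had 884 ± 84.5 in vector unstimulated and 1090.3 ± 34.0 in tSema4B unstimulated, higher in tSema4B as given above, and after NE -0.14 ± 0.086 SE (limma adjusted p = 0.272). Rpl6l (-0.24 ± 0.24 SE after NE) and Rpl6 (-0.072 ± 0.13 SE) passed in no comparison. Rpl3l, the form of heart and skeletal muscle, and Rpl10l, the form of the male germ line, were at or near 0, so no fold is given for them. Their parents were measured, Rpl3 at 218 ± 9.07 in vector unstimulated and called lower in tSema4B after NE (-0.38 ± 0.13 SE, limma adjusted p = 0.0393), and Rpl10 at 35.8 ± 2.89 with no comparison past the test. The Rpl3 call was lost in 8 of 26 alternatives, with values from -0.45 to -0.29.

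**Figure D5:**
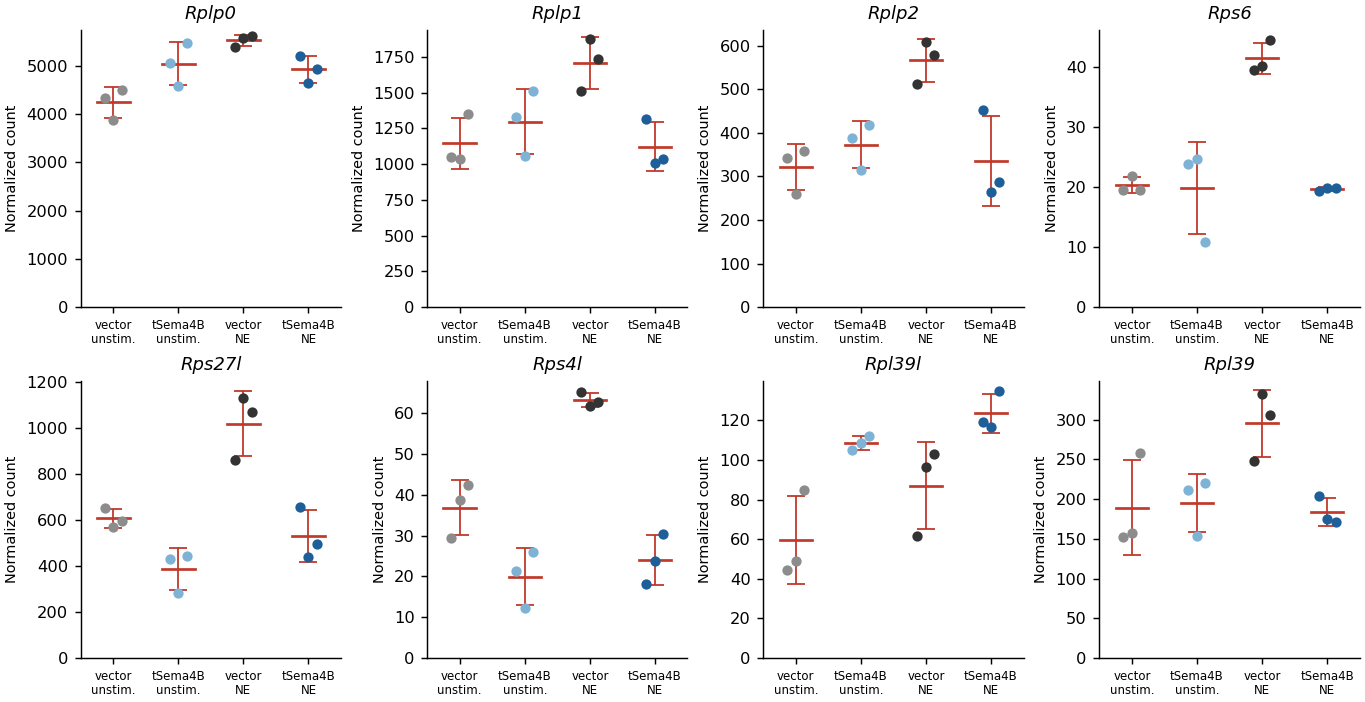
Normalized counts of 8 members in each library, with a red line at the group mean and bars of 1 SD (n = 3), all axes starting at 0. In the 3 stalk genes and Rps6 the vector NE libraries lie above the other vector libraries, Rps27l and Rps4l lie lower in tSema4B in both conditions, and Rpl39l lies higher in tSema4B while Rpl39 does not.

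Some properties of the transcripts and libraries are given beside these results. The median of short transcripts outside the group had the same sign: of other genes of at most 750 bases, the median log2 fold change of NE in vector was 0.26 over 355 genes, against -0.10 over 4814 genes of more than 3000 bases, where the 34 members of at most 750 bases had a median of 0.61. After NE, tSema4B against vector gave -0.40 for the short and 0.11 for the long other genes, and -0.55 for the short members. The part of transcript length in the result was not tested. By unique sequence, the NE effect in vector had medians of 0.41, 0.54 and 0.56 in the 15, 36 and 26 tested members with under 25, 25 to 75 and at least 75% unique windows, with 1, 13 and 19 of them called higher, and the difference after NE had medians of -0.49, -0.50 and -0.44. The pseudogene rows themselves, 53 of which could be tested, had medians of 0.47 for NE in vector (8 higher, against 6.82% of all genes, and 0 lower, against 4.78%) and -0.35 for tSema4B against vector after NE (1 higher, against 9.79%, and 5 lower, against 11.2%). The row higher after NE was Rps19-ps6, which was higher in tSema4B without stimulus (1.23, limma adjusted p = 2.48e-07) and after NE (0.95, limma adjusted p = 9.07e-06). Adding the pseudogene rows to their members left 35 members lower after NE, against 1339 of all 11945 genes then tested. It gave 43 members higher with NE in vector, against 820 of all genes. With these rows Rps19 turned from -0.15 ± 0.14 SE to 0.74 (limma adjusted p = 1.35e-04) after NE and from 0.20 ± 0.14 SE to 1.08 (limma adjusted p = 1.17e-06) without stimulus. Thinning reads to the shallowest library was an alternative added after seeing the data. It gave 32 members higher with NE in vector, against 734 of all 11998 genes, and 31 lower in tSema4B after NE, against 1247.

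Other components of the ribosome and of translation were described from lists chosen with earlier results of these data known. Their counts stand beside the shares of all genes called by limma, which were 6.82% higher and 4.78% lower with NE in vector, 3.68% and 2.58% with NE in tSema4B, 9.79% and 11.2% in tSema4B against vector after NE, and 5.64% and 7.39% without stimulus. Among 9 tested subunits and paralogs outside the name rule, 5 were higher with NE in vector and 4 lower in tSema4B after NE, with medians of 0.50 and -0.50. Rpl22l1, the paralog of Rpl22, gave 0.86 with NE in vector and -1.65 ± 0.27 SE, limma adjusted p = 1.42e-04 in tSema4B against vector after NE, and Rack1, a scaffold protein bound to the small subunit, -0.56 ± 0.083 SE, limma adjusted p = 3.71e-05. Rps3a1 was higher in tSema4B without stimulus (0.42 ± 0.10 SE, limma adjusted p = 0.00806). Ribosome biogenesis factors, which process ribosomal RNA and assemble the subunits, had larger medians than the ribosomal proteins, a difference that was not tested. Of these factors, 34 of 53 were higher with NE in vector and 26 lower in tSema4B after NE, with medians of 0.77 and -0.60. Nop16 gave 1.53 ± 0.19 SE, limma adjusted p = 8.14e-06 and Gnl3, a nucleolar GTPase, 1.41 ± 0.16 SE, limma adjusted p = 3.54e-06 with NE in vector. In tSema4B, 11 of 53 biogenesis factors were higher with NE and none lower, Gnl3 first at 0.96 ± 0.16 SE, limma adjusted p = 5.30e-04. Without stimulus 1 was higher in tSema4B, Ubtf, a factor of RNA polymerase I (0.64), and 3 were lower, Myc (-0.49) among them.

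Of 45 translation factors, 16 were higher and none lower with NE in vector (median 0.27), 4 were higher, against 3.68% of all genes, and 2 lower, against 2.58%, with NE in tSema4B (0.046), and 19 were lower and none higher in tSema4B after NE (-0.28). Eif4a1, the RNA helicase of the cap-binding complex, rose with NE in both lines, by 0.75 in vector and 0.73 in tSema4B. Eif1a was lower in tSema4B in both conditions (-0.64 without stimulus and -0.85 after NE). Without stimulus 1 translation factor was higher and 4 lower in tSema4B. Mitochondrial ribosomal proteins, encoded in the nucleus and built into the ribosome of the mitochondrion, were called lower in tSema4B for 14 of 76 without stimulus, against 7.39% of all genes, and for 29 of 76 after NE, against 11.2%, none being higher, with medians of -0.26 and -0.47. Mrpl12 gave -0.92 ± 0.17 SE, limma adjusted p = 5.10e-04 without stimulus and -1.02 ± 0.17 SE, limma adjusted p = 1.23e-04 after NE. NE raised 11 of them in vector and 2 in tSema4B, and none was lower. Of 22 genes of mTORC1 and the control of TOP mRNAs, 3 were lower, against 4.78% of all genes, and none higher, against 6.82%, with NE in vector, namely Sesn3 (-1.29 ± 0.18 SE, limma adjusted p = 5.18e-05), Tsc2 (-0.75) and Sesn1 (-0.53), each of which restrains mTORC1. After NE 5 were higher, against 9.79% of all genes, and 3 lower, against 11.2%, in tSema4B, with Sesn3 (0.73) and Sesn1 (0.64) higher and Eif4ebp1, a repressor of cap-dependent translation, lower (-0.87 ± 0.13 SE, limma adjusted p = 2.88e-05). Without stimulus Eif4ebp1 was lower (-0.71) and Deptor, an inhibitor of mTOR, higher (0.44) in tSema4B, and with NE in tSema4B Ddit4 alone was called, higher at 0.48.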

How the data were processed

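RNA of 12 libraries was sequenced by the study as single-end 100-base reads, and the authors aligned them with STAR 2.7.9a to mm10, used htseq-count for gene counts and deposited counts normalized by DESeq2, a signal per gene that can be set side by side between libraries. The annotation, strand setting and treatment of multi-mapping reads are not given in the sources used here. The value of 1 read was recovered for each library, and 100% of values were whole reads within 0.01. Depth was 2000780 to 5409583 reads on genes, so a member with few reads is imprecise, and only counting and library spread enter the errors.

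Genes with at least 10 normalized counts in 3 of 12 libraries (11998 of 48321) were fitted with limma 3.58.1 (R 4.3.3, trend) as 1 model of 4 groups on log2(normalized count + 1), a scale that understates changes of low genes. All tests are two-sided, p-values were adjusted over all genes tested by the Benjamini-Hochberg method, and members were called at an adjusted p of at most 0.05. Simulated data for NE in vector over 11998 genes held changes only in genes with a mean of at least 50 normalized counts. Of these, the test called 86% of changes of 1 and 27% of changes of 0.5 on the log2 scale. Members with lower means, Rps6 and Rpl12 among them, were not covered by these shares. Alternatives used edgeR 4.0.16 and DESeq2 1.42.0 on the whole reads, other scalings, filters, pseudocounts and thresholds, added pseudogene rows, thinned reads, a replicate block, and each library left out. Gene positions and transcripts came from GENCODE mouse release 21 (GRCm38), and starts from RefSeq (GRCm38.p6).

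Members and lists were chosen with earlier results of these data known. Named members were the 3 largest calls per comparison and direction, those ending in l with their parents, and a set of well-known members (Rplp0, Rplp1, Rplp2, Rpsa, Rps6, Rpl5, Rpl11, Rps3, Rpl13a, Rps27a and Rpl10a). Other members (Rpl4, Rps14, Rpl15, Rps19 and Rps24) were named after their values were seen, and some single-member results are not reported here. From the other lists, genes were named among the 4 largest calls. Pairs of libraries in a group differed by more than sampling noise (chi-square per degree of freedom 3.56 to 5.79 over 12 pairs), so all were kept as separate.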

Additional observations from a re-analysis of the deposited data

Results flagged for a closer look

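For Rpl23, Rpl3 and Rpsa, all vector NE libraries lay above all vector unstimulated libraries while all tSema4B NE libraries lay below all tSema4B unstimulated libraries. The interaction of tSema4B and NE, on the log2 scale, was -0.76 for Rpl23, -0.44 for Rpl3 and -0.33 for Rpsa. This pattern was picked by the separation of libraries, which was not tested as such, and it was met by 4 of the 79 tested members, 3 of them named here, and by 81 of the 11998 genes tested (0.675%). In the limma test of the interaction none of the 3 passed, with adjusted p of 0.241, 0.399 and 0.401.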

How the results depend on the processing

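Depth limits the members with few reads, and the 3 libraries of a group are technical replicates of 1 line per construct. Of 25 calls of named members, 15 were kept under all alternatives run and 0 changed direction. The median of the members ran from 0.46 to 0.63 for NE in vector, -0.55 to -0.39 for tSema4B against vector after NE, 0.041 to 0.27 without stimulus, -0.19 to 0.029 for NE in tSema4B and -0.68 to -0.48 for the interaction. Leaving out 1 library gave 17 to 40 members higher with NE in vector and 18 to 38 lower in tSema4B after NE. It gave 0 to 11 higher and 1 to 2 lower without stimulus, 0 to 1 higher and 0 to 3 lower with NE in tSema4B, and 0 to 10 lower for the interaction. Of all 11929 to 11950 genes then tested, 444 to 892 were higher with NE in vector and 956 to 1443 lower in tSema4B after NE. Without stimulus 460 to 729 were higher and 582 to 958 lower. With NE in tSema4B 322 to 414 were higher and 207 to 290 lower, and for the interaction 0 to 22 were lower. When a change of 1 on the log2 scale was also asked for, 2 members were lower after NE, and 0 were higher with NE in vector and 0 higher and 0 lower without stimulus. At an adjusted p of 0.01 these counts were 15 lower after NE, 18 higher with NE in vector and 0 higher without stimulus. The share of all genes called at 0.01 is not given here, so these counts are not set against it. Scaling to the same total over nuclear genes gave 2 higher and 2 lower without stimulus, against 475 and 1232 of all 11998 genes. Adding pseudogene rows gave 1 higher after NE, Rps19, against 1177 of all 11945 genes. For NE in tSema4B, a pseudocount of 10, a filter at 50 and quantile normalization each gave 1 lower. Of all genes, these settings called 338 of 11998, 318 of 8921 and 310 of 11998 lower. DESeq2 gave 2 lower for NE in tSema4B, against 1.45% of the genes it was given, and 22 lower for the interaction, against 0.328%. The cause of these differences was not tested beyond the change of threshold, scale or rows itself. The members' share was 1.29 and 1.73% of nuclear genes in vector unstimulated and vector NE, and of nuclear genes other than Sema4b 1.35 and 1.78% in the same groups, 1.54% in tSema4B unstimulated and 1.43% in tSema4B NE. Libraries with the same number did not deviate together (correlations -0.047 to 0.028 over 18 pairs, 1 library closest to its own number). With the replicate block, 7 members were higher and 1 lower without stimulus, against 652 and 852 of all 11998 genes. After NE 32 were lower, against 1293, and with NE in vector 34 were higher, against 778. The counts were 0 for NE in tSema4B, against 418 genes higher and 294 lower, and 0 for the interaction, against 3 higher and 0 lower.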
